A study of Mus musculus with 5 samples.

Results

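The genes described here are 9 of the 27998 genes in a single-cell matrix of the mouse ocular area, chosen because they carry, admit or read retinoids. They are the cytoplasmic carriers Crabp1 and Crabp2, the uptake gene Stra6, the retinoic acid receptors Rara, Rarb and Rarg, and the retinoid X receptors Rxra, Rxrb and Rxrg. All 9 were found in the matrix and were followed by raw UMIs, the distinct RNA molecules counted per gene and cell. The comparison of neural crest mesenchyme with neuroepithelium is given first. All embryos were wild-type C57BL/6J mice, and 1 embryo was taken at each of 12, 16, 20, 24 and 26 somites. From each embryo the pair of optic areas was cut out by needle and dissociated with trypsin, and the cells were profiled with the 10x Genomics Chromium 3′ kit, version 3. The matrix pools the 5 embryos, and the barcode suffix that separates the libraries names no stage. The libraries are therefore numbered 1 to 5 by suffix, no stages are compared, values are given library by library, and no p-value is given.

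Retinol travels in blood on a binding protein and enters cells through the membrane receptor encoded by Stra6. Inside the cell it is oxidised to retinoic acid, which the CRABP proteins bind in the cytoplasm. Crabp2 protein can deliver the ligand to nuclear receptors, and Crabp1 protein is linked to its breakdown. Retinoic acid receptors (RARs) bind DNA as pairs with retinoid X receptors (RXRs), and in the mouse eye they are known for their role in the mesenchyme around the optic cup, which receives retinoic acid made by neighbouring epithelia.

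Paired receptors bind direct repeats of a hexamer, and the spacer of 5 bases, called DR5, is the classical retinoic acid response element. Promoter windows of 250 bases before to 50 bases after the start were searched for DR5, DR1 and DR2 on both strands, where the number is the spacer in bases. The hexamer searched was AGGTCA or one of 3 variants, which are AGTTCA as in Cyp26a1, GGTTCA as in the first repeat of Rarb, and in addition GGGTCA. Every repeat also holds 2 half-site matches. The windows came from RefSeq, build GRCm38.p6, and 8 of the 9 genes had at least 1, with 18 windows in all and none for Crabp2. A DR5 was found for Rarb, a match that was fixed when the hexamers of its known element were put into the search, and none of the 18 held a DR1 or a DR2. Of all 32851 windows, 0.0974% held a DR5, 0.222% a DR1, 0.268% a DR2 and 43.7% a half-site. The Rarb element, known from earlier work as the retinoic acid response element of this gene, is shown beside that of Cyp26a1, which encodes an enzyme that breaks retinoic acid down, with the half-sites in capitals.
Rarb: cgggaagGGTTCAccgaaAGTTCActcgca
Cyp26a1: caaattAGTTCAcccaaAGTTCAtctttaa
The Rarb stretch lies at chr14:16575507-16575536 on the minus strand. Its DR5 runs from 53 to 37 bases before the RefSeq start of that window, which lies inside the annotated gene (16430839 to 16819156). The stretch also overlaps an annotated Rarb exon. The Cyp26a1 stretch is read on the minus strand at chr19:37697769-37697798, opposite to the gene. Its DR5 lies between 32 and 16 bases before the RefSeq start, and the stretch overlaps an annotated Cyp26a1 exon. A match describes the letters only, and nothing about binding follows from it.

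After filtering, 8106 of the 8194 barcodes were kept, and the libraries held 1307 to 1996 barcodes and 41694822 to 72925591 UMIs each, with medians from 20713 UMIs in library 5 to 30922 UMIs in library 1. Classes were named from marker lists, and each short name below stands for cells that are like that type. Crest mesenchyme (1614 cells) had all 10 of its markers, at a summed 1243 CPM (818 to 1567 over libraries), where CPM is UMIs per 1000000 UMIs of the class, against 39.7 CPM (34.0 to 46.9) in neuroepithelium. Neuroepithelium (2943 cells) joins optic vesicle (2021) and other forebrain (922). Other classes used were migratory crest (389), head mesoderm (247), surface ectoderm (359), a ventral cluster led by Nkx2-1 (683), endothelium (388) and erythroid cells (253). The 10 optic vesicle markers summed to 998 CPM (641.5 to 1231) in optic vesicle and 289 CPM (173 to 375) in other forebrain. They summed to 791 CPM (391 to 920.5) in the ventral cluster, a range that overlapped that of optic vesicle. Library 1 stands apart in crest mesenchyme, since 51 of its 52 such cells came from 1 sub-cluster led by Tagln, Acta2 and Msx1, with 6 crest markers and 2 head mesoderm markers. In library 5, 433 of the 531 crest mesenchyme cells came from a sub-cluster with almost no cells of other libraries. All classes were rebuilt from the counts, and 80 barcodes share their 16 bases with a barcode of another library.

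Crest mesenchyme had more Crabp1, Rarg, Rarb and Rara RNA than neuroepithelium, and no gene of the 9 was called lower. A gene was called when the CPM ratio was at least 2, the direction was the same in every library with 20 cells of both classes, and the higher class reached 20 CPM. Of the 9 genes, 8 had at least 5 CPM over the classes joined and were assessed, and 4 of these were called higher and 0 lower. Over all 8768 genes assessed, 2.95% were called higher and 2.35% lower. The median log2 ratio of the 8 genes was 1.03, beside 0.03 over all genes. Intervals are exact 95% intervals of counting error only, and they do not cover differences between embryos.

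**Figure D1:**
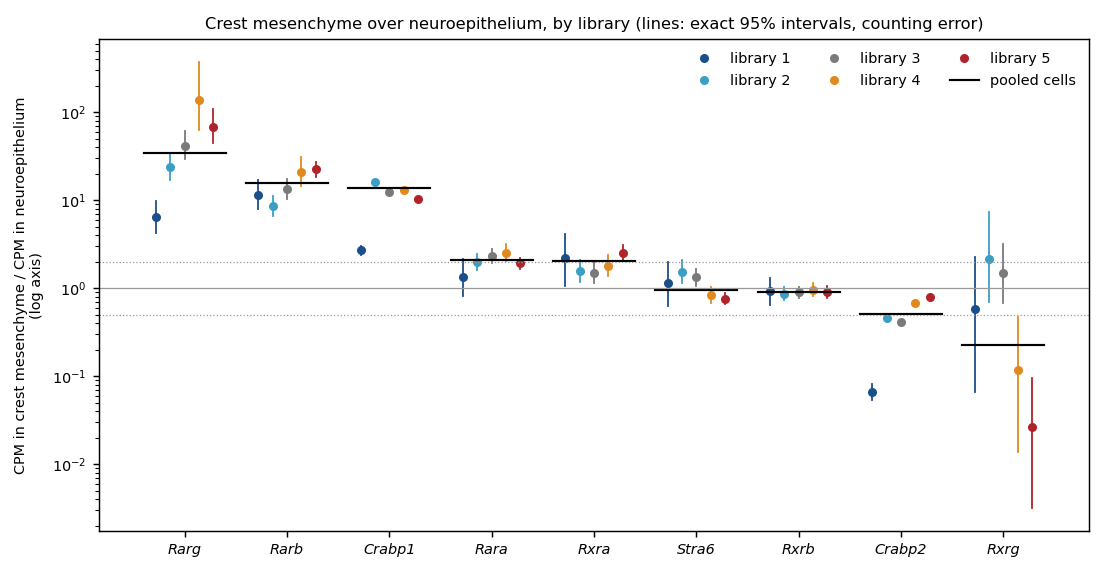
Ratio of CPM in crest mesenchyme to CPM in neuroepithelium for each gene on a log axis, with points for libraries 1 to 5, vertical lines for exact 95% counting intervals, black bars for the pooled cells and dotted lines at the limits for a call. Rarg, Rarb and Crabp1 lie above 2 in all 5 libraries, Rxrb stays close to 1, and library 1 has the lowest ratio for Rarg, Crabp1 and Crabp2.

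Crabp1, on mouse chromosome 9 from 54764748 to 54773110 (GRCm38, plus strand, ENSMUSG00000032291), had 213, 2548, 2261, 2254 and 922 CPM in crest mesenchyme of libraries 1 to 5. The same libraries had 79.5, 157, 183, 174 and 90.5 CPM in neuroepithelium. Every crest value was above every neuroepithelial value, with library 1 closest. Pooled crest mesenchyme had 1943 CPM from 83627 UMIs, against 141 CPM from 14115 UMIs in neuroepithelium, a ratio of 13.8 (13.5 to 14.0). The ratio was 2.68 in library 1 and 10.2 to 16.2 in the other libraries. The sub-cluster led by Tagln and Acta2 had 288 CPM, and without it the pooled ratio was 15.4. In the crest sub-clusters that hold most of libraries 2, 3 and 4, Crabp1 had 2804, 2664 and 2996 CPM, and a further sub-cluster of library 4 had 1601 CPM. The main sub-cluster of library 5 had 933 CPM, so crest mesenchyme itself spans a wide range.

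Crabp2 (chromosome 3, 87948666 to 87953376, plus strand, ENSMUSG00000004885) ran the other way in every library. Crest mesenchyme of libraries 1 to 5 had 63.9, 380.9, 273, 374 and 371 CPM. Neuroepithelium of libraries 1 to 5 had 969, 826.5, 668, 558 and 472 CPM. All neuroepithelial values were above all crest values, and libraries 4 and 5 came closest. The pooled values were 336.6 CPM in crest mesenchyme and 666.6 CPM in neuroepithelium, a ratio of 0.505 (0.496 to 0.514), which missed the call by its size alone. It was called with libraries weighted equally (ratio 0.419), with median-of-ratios size factors (0.499), with a mitochondrial limit of 5% (0.499), without library 4 (0.473) and without library 5 (0.447).

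Crabp1 therefore made up 85.2% of the CRABP UMIs of crest mesenchyme (85.0 to 85.5%), against 17.5% of those of neuroepithelium (17.2 to 17.7%). Over libraries 1 to 5 its share was 76.9, 87.0, 89.2, 85.8 and 71.3% in crest mesenchyme, against 7.58, 16.0, 21.6, 23.7 and 16.1% in neuroepithelium. The ranges did not overlap. With libraries pooled, the split held cell by cell after each cell was thinned to 10000 UMIs. This depth was not reached by 62 crest and 79 neuroepithelial cells. Of the 531 crest cells of library 5, 471 reached it. Crest mesenchyme had more Crabp1 than Crabp2 UMIs in 1408 of 1552 cells (90.7%) and more Crabp2 in 5.22%, whereas neuroepithelium had more Crabp2 in 2544 of 2864 cells (88.8%) and more Crabp1 in 7.12%. Over libraries 1 to 5, the share of crest cells with more Crabp1 was 56.9, 97.0, 93.7, 98.6 and 81.95%, so library 1 was least split. The median thinned crest cell had 17 Crabp1 and 3 Crabp2 UMIs, against 1 Crabp1 and 6 Crabp2 UMIs in the median neuroepithelial cell. In library 1 the crest medians were 2 Crabp1 and 1 Crabp2 UMIs, and in library 5 they were 8 and 3. Both carriers were detected in 84.5% of thinned crest cells, but in 39.2% of those of library 1. Erythroid cells, which should lack both, had a Crabp1 UMI in 9.49% and a Crabp2 UMI in 13.8% of thinned cells, at a median of 42576 UMIs before thinning, where crest cells had a median of 26530.5 and neuroepithelial cells 29129. Crest cells had a Crabp1 UMI in 97.0% and a Crabp2 UMI in 86.15%, against 58.7% and 98.8% of neuroepithelial cells. Without thinning the Crabp1 shares were 98.95% of crest, 81.8% of neuroepithelial and 39.1% of erythroid cells.

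**Figure D2:**
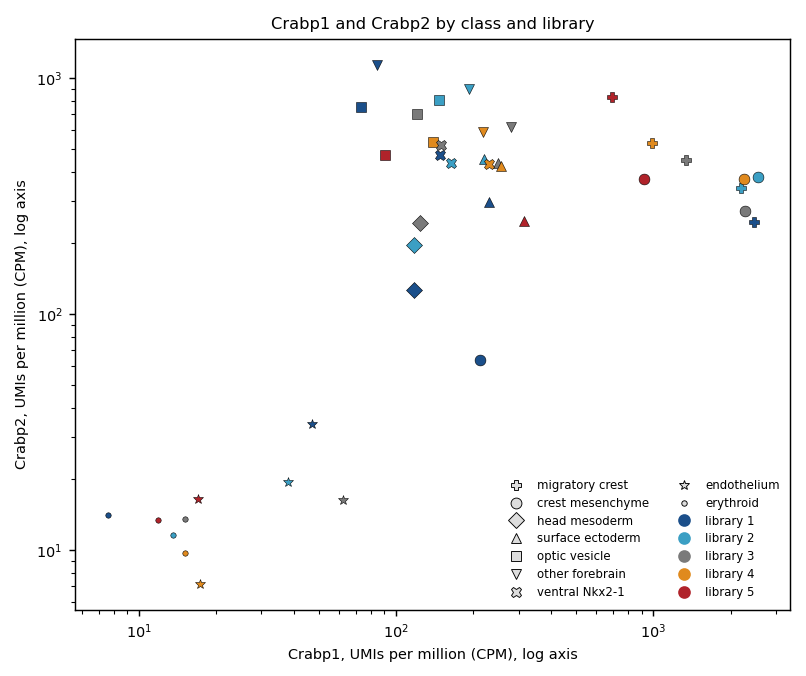
Crabp1 against Crabp2 (CPM, log axes) with 1 point for each class and library that had at least 20 cells, the shape giving the class and the colour the library. Crest mesenchyme and migratory crest sit to the right, except crest mesenchyme of library 1 at 213 CPM Crabp1, neuroepithelial classes sit at the top left, and endothelium and erythroid cells lie lowest for Crabp2.

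In the order of Crabp1 levels, migratory crest came first (2131 CPM; 689 to 2453 over libraries) and crest mesenchyme next (1943; 213 to 2548), with overlapping ranges. Surface ectoderm had 249 CPM, other forebrain 204 and the ventral cluster 170.5, again with overlapping ranges. Head mesoderm had 115 CPM and optic vesicle 113, with ranges that lay below that of the ventral cluster and overlapped each other. Endothelium had 40.3 CPM and erythroid cells 12.8, each apart from the class above. For Crabp2 the order was other forebrain (772 CPM; 591 to 1130), optic vesicle (620; 472 to 807), the ventral cluster (468), surface ectoderm (395), crest mesenchyme and migratory crest (319), and each range overlapped the next. Head mesoderm had 184 CPM, below the range of migratory crest. Endothelium had 18.4 CPM (7.19 to 34.2), a range that overlapped that of erythroid cells (12.1 CPM; 9.71 to 14.1). Whether the endothelial value is background was not tested. Erythroid CPM values are lowered by globin RNA, whose markers took 335518.5 CPM of those cells.

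Stra6, the uptake receptor gene (chromosome 9, 58063788 to 58153996, plus strand, ENSMUSG00000032327), did not separate crest mesenchyme from neuroepithelium. Crest mesenchyme of libraries 1 to 5 had 9.59, 9.63, 10.7, 13.8 and 25.4 CPM. Neuroepithelium had 8.36, 6.26, 8.02, 16.6 and 33.6 CPM. Library 5 was highest in both classes, and the ranges overlapped. The pooled values were 14.5 CPM in crest mesenchyme and 15.45 CPM in neuroepithelium, a ratio of 0.940 (0.856 to 1.03), with crest mesenchyme higher in 3 of 5 libraries.

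Stra6 differed more within epithelia than between these classes. Optic vesicle of libraries 1 to 5 had 7.13, 6.13, 10.1, 26.3 and 33.8 CPM, against 9.27, 6.70, 4.85 and 4.24 CPM in other forebrain of libraries 1 to 4. Only libraries 3 and 4 had more in the vesicle, so the pooled ratio of 3.26 (2.79 to 3.82; 19.6 against 6.03 CPM) gave no call, and without library 5 it was 1.98. Within the vesicle, a sub-cluster of 273 cells led by the pigment cell genes Trpm1, Pmel and Dct had 52.0 CPM, and 270 of its cells came from library 5. Other sub-clusters of library 5 had 28.2 CPM (148 cells led by Aldh1a1 and Dapl1), 21.2 CPM (128 cells led by Rpgrip1) and 13.9 CPM (265 cells led by Cp, Zic1 and Pax2). The sub-cluster of library 4 had 26.75 CPM and those of libraries 1 to 3 had 3.39 to 10.3 CPM. Surface ectoderm of libraries 1 to 5 had 6.42, 10.9, 11.5, 26.75 and 84.55 CPM. Library 5 stood far above the rest, and a sub-cluster of 34 cells, all from library 5 and led by Sostdc1, Epcam and Maf, had 110.3 CPM from 83 UMIs. It had 7 surface ectoderm and 3 lens placode markers. Another sub-cluster, with 25 of its 35 cells from library 5, had 23.07 CPM. The differences among the 4 vesicle sub-clusters of library 5 lie within 1 library, whereas between libraries the library and its stage cannot be told apart.

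**Figure D3:**
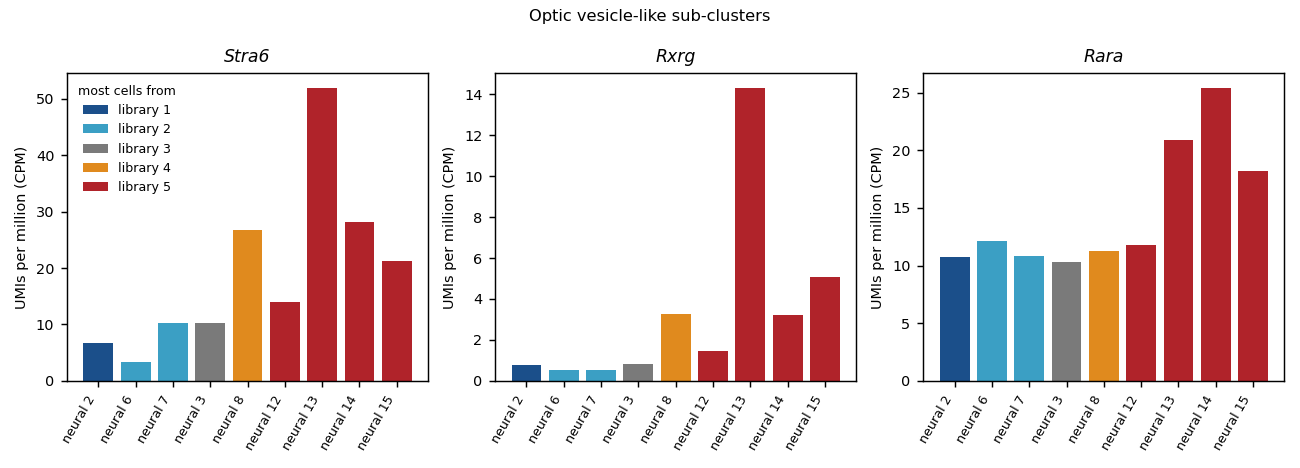
CPM of Stra6, Rxrg and Rara in each optic vesicle sub-cluster, with bars from 0 coloured by the library that gave most of the cells. The sub-cluster led by Trpm1 and Pmel (neural 13) has the highest Stra6 at 52.0 CPM and Rxrg at 14.3 CPM, and the one led by Aldh1a1 (neural 14) the highest Rara at 25.4 CPM.

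The order of Stra6 levels was surface ectoderm (23.6 CPM), optic vesicle (19.6), crest mesenchyme (14.5) and head mesoderm (13.05; 10.6 to 14.0), with overlapping ranges, then other forebrain (6.03; 4.24 to 9.27), whose range lay below that of head mesoderm. Migratory crest had 5.27 CPM, the ventral cluster 3.65, endothelium 1.39 and erythroid cells 0.368, each overlapping its neighbour. At 10000 UMIs, 14.9% of crest, 13.2% of neuroepithelial and 0.395% of erythroid cells had a Stra6 UMI. Stra6 overlaps Ccdc33 on the opposite strand and the antisense transcript Gm16131, and whether counting used the strand is not given in the sources used here. Ccdc33 had 0.116 CPM in crest mesenchyme and 1.42 CPM in surface ectoderm.

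Rarg, the receptor gene on chromosome 15 (102234938 to 102257517, minus strand, ENSMUSG00000001288), had the highest pooled ratio of the 9. Crest mesenchyme of libraries 1 to 5 had 25.6, 64.7, 44.8, 50.5 and 63.4 CPM. Neuroepithelium had 3.97, 2.74, 1.08, 0.371 and 0.943 CPM. The classes did not overlap, and library 1 was lowest in crest mesenchyme and highest in neuroepithelium. The pooled values were 54.3 CPM from 2336 UMIs in crest mesenchyme and 1.57 CPM from 157 UMIs in neuroepithelium, a ratio of 34.6 (29.4 to 40.9). Single libraries gave ratios of 6.45, 23.6, 41.4, 136 and 67.3, and without library 1 the ratio was 46.8. At 10000 UMIs, a Rarg UMI was found in 40.3% of crest cells (37.9 to 42.8%), against 1.71% of neuroepithelial cells (1.27 to 2.26%). None of 253 erythroid cells had one, which allows a share of up to 1.19%. Without thinning these shares were 70.7% of crest, 4.83% of neuroepithelial and 0.791% of erythroid cells. Crest markers stood at 39.7 CPM in neuroepithelium beside 1243 CPM in crest mesenchyme, and the part of stray crest RNA in the neuroepithelial value was not tested.

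Rarg was also present outside the crest. Migratory crest had 56.1 CPM (23.6 to 70.3), endothelium 30.5 CPM (20.9 to 41.1), surface ectoderm 20.4 CPM (15.6 to 29.95) and head mesoderm 15.02 CPM (10.99 to 18.15), and each range overlapped the one before. The ventral cluster followed at 3.44 CPM (2.19 to 5.68), below the range of head mesoderm. Other forebrain had 2.05 CPM, optic vesicle 1.36 and erythroid cells 0.184, with overlapping ranges. In thinned cells a Rarg UMI was found in 23.1% of endothelial and 18.0% of surface ectoderm cells.

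Rarb, a receptor gene that retinoic acid itself is known to induce, lies on chromosome 14 (16430839 to 16819156, minus strand, ENSMUSG00000017491) and holds the DR5 printed above. Crest mesenchyme of libraries 1 to 5 had 44.7, 40.3, 31.2, 40.7 and 105 CPM. Neuroepithelium had 3.89, 4.71, 2.36, 1.98 and 4.71 CPM. Every crest value exceeded every neuroepithelial value, and library 5 stood above the other crest values. The pooled values were 53.0 CPM from 2282 UMIs in crest mesenchyme and 3.42 CPM from 342 UMIs in neuroepithelium, a ratio of 15.5 (13.9 to 17.4). The ratio was 8.55 to 22.4 in single libraries. At 10000 UMIs, 38.3% of crest, 3.46% of neuroepithelial and 0 of 253 erythroid cells had a Rarb UMI, with the same limit of 1.19% for the erythroid cells. Without thinning, the shares were 66.7% of crest, 10.2% of neuroepithelial and 1.19% of erythroid cells.

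The high Rarb value of library 5 came from both of its crest sub-clusters. The larger (436 cells, 433 from library 5) had 104.4 CPM, and Rarb was among its 10 leading genes beside Crym, Bcl11a and Igf1. The smaller (86 cells, all from library 5, median 10414 UMIs) had 120.6 CPM. Sub-clusters of the other libraries had 30.3 to 44.9 CPM, among them 39.5 CPM in the one led by Tagln and Acta2. That sub-cluster had Rarb within the range of the others while Crabp1 was at 288 CPM and Rarg at 28.2 CPM, each below every other crest sub-cluster. Rarb overlaps Top2b on the opposite strand and the antisense transcript Gm48162. Top2b had 80.1 CPM in crest mesenchyme, 64.3 CPM in optic vesicle and 47.0 CPM in other forebrain, and its part in the Rarb counts was not tested.

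Over the classes, Rarb was highest in mesenchyme. Migratory crest came after crest mesenchyme at 18.05 CPM (1.83 to 23.7, the lowest from 1 UMI), without overlap. Head mesoderm at 16.99 CPM (14.0 to 18.9) overlapped migratory crest. The ventral cluster at 5.03 CPM (1.64 to 10.3) lay below head mesoderm. Surface ectoderm (3.73 CPM), endothelium (3.56), optic vesicle (3.53) and other forebrain (3.16) had overlapping ranges, and erythroid cells lay below them at 0.276 CPM.

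Rara, the receptor gene known for broad expression in embryos, lies on chromosome 11 (98927818 to 98974942, plus strand, ENSMUSG00000037992). Crest mesenchyme of libraries 1 to 5 had 13.4, 21.6, 19.2, 21.6 and 35.2 CPM. Neuroepithelium had 9.95, 10.9, 8.31, 8.53 and 18.5 CPM. Crest mesenchyme was higher within each library, but crest mesenchyme of library 1 lay below neuroepithelium of library 5. Pooled crest mesenchyme had 23.75 CPM and neuroepithelium 11.4 CPM, a ratio of 2.08 (1.91 to 2.27), close to the limit for a call. The call was lost with a mitochondrial limit of 5% (ratio 1.97), with libraries weighted equally (1.98) and without library 3 (1.98). At 10000 UMIs, 21.7% of crest, 10.5% of neuroepithelial and 1.19% of erythroid cells had a Rara UMI. Surface ectoderm (21.3 CPM) and migratory crest (20.35) overlapped crest mesenchyme. Head mesoderm (18.4 CPM; 16.1 to 19.7) lay just below the range of migratory crest (19.8 to 27.4), and endothelium (13.8), optic vesicle (13.6), the ventral cluster (9.16) and other forebrain (6.48) followed with overlapping ranges. Erythroid cells had 0.643 CPM. A small nuclear RNA gene, Gm22061, lies within Rara on the same strand.

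**Figure D4:**
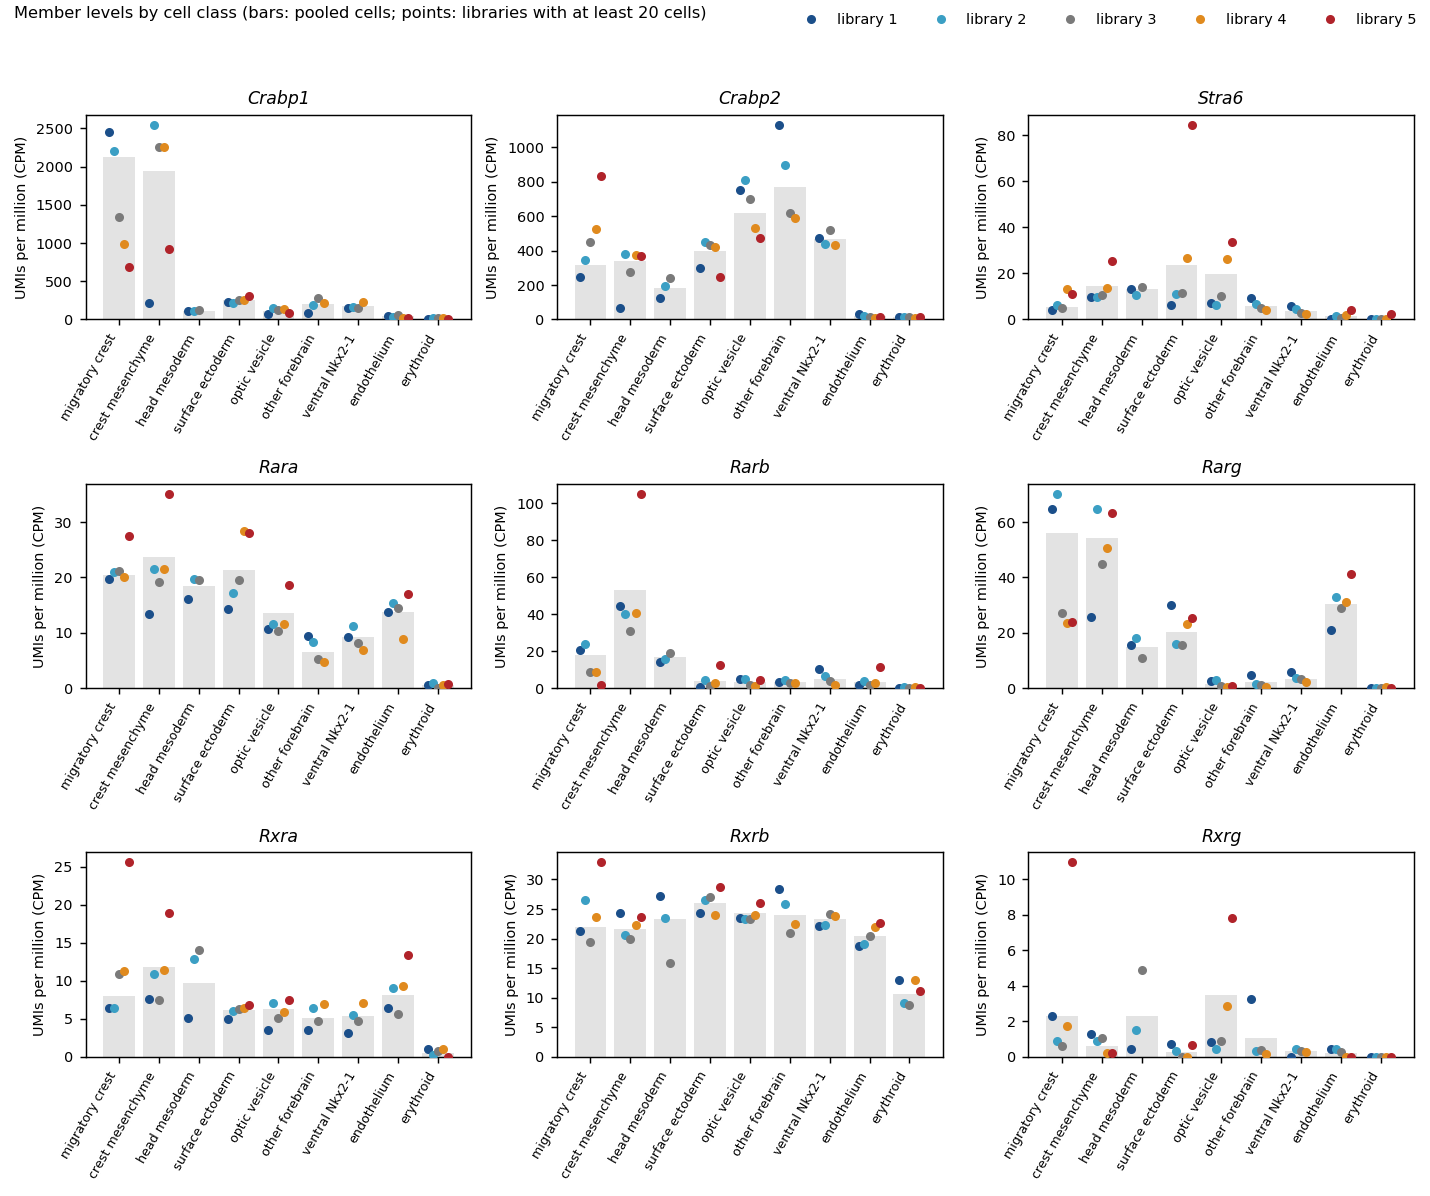
CPM of the 9 genes in 9 classes on linear axes from 0, with grey bars for pooled cells and points for each library with at least 20 cells of the class. Crabp1, Rarb and Rarg are highest in crest classes, Crabp2 in neuroepithelial classes, Rxrb lies near 20 to 26 CPM in every class but erythroid cells, and library 5 gives the highest points for Stra6 and Rarb.

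The RAR makeup accordingly differed between classes. Of the RAR UMIs of crest mesenchyme, 18.1% were Rara (17.1 to 19.2%), 40.5% Rarb and 41.4% Rarg (40.1 to 42.7%), against 69.6% Rara (67.3 to 71.8%), 20.8% Rarb and 9.56% Rarg (8.18 to 11.1%) in neuroepithelium. Within crest mesenchyme Rarb made up 53.4% of RAR UMIs in library 1 and 51.7% in library 5, but 31.8, 32.8 and 36.1% in libraries 2, 3 and 4. Within neuroepithelium Rarg made up 22.3, 14.9, 9.21, 3.41 and 3.91% in libraries 1 to 5. Rarg led in endothelium (63.65%) in all 5 libraries. In migratory crest the pooled Rarg share was 59.4%, and it was 61.3, 61.1, 47.9, 45.0 and 44.8% in libraries 1 to 5. Library 1 gave 668 of those 830 Rarg UMIs, and in library 5 Rara (15 of 29 RAR UMIs) was above Rarg. Surface ectoderm was split between Rara (46.9%) and Rarg (44.9%) with 8.20% Rarb, and head mesoderm had 36.5% Rara, 33.7% Rarb and 29.8% Rarg. Rara made up 73.6% in optic vesicle and 55.4% in other forebrain. The 3′ kit may capture the genes with unequal efficiency, so these shares compare classes, not genes.

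**Figure D5:**
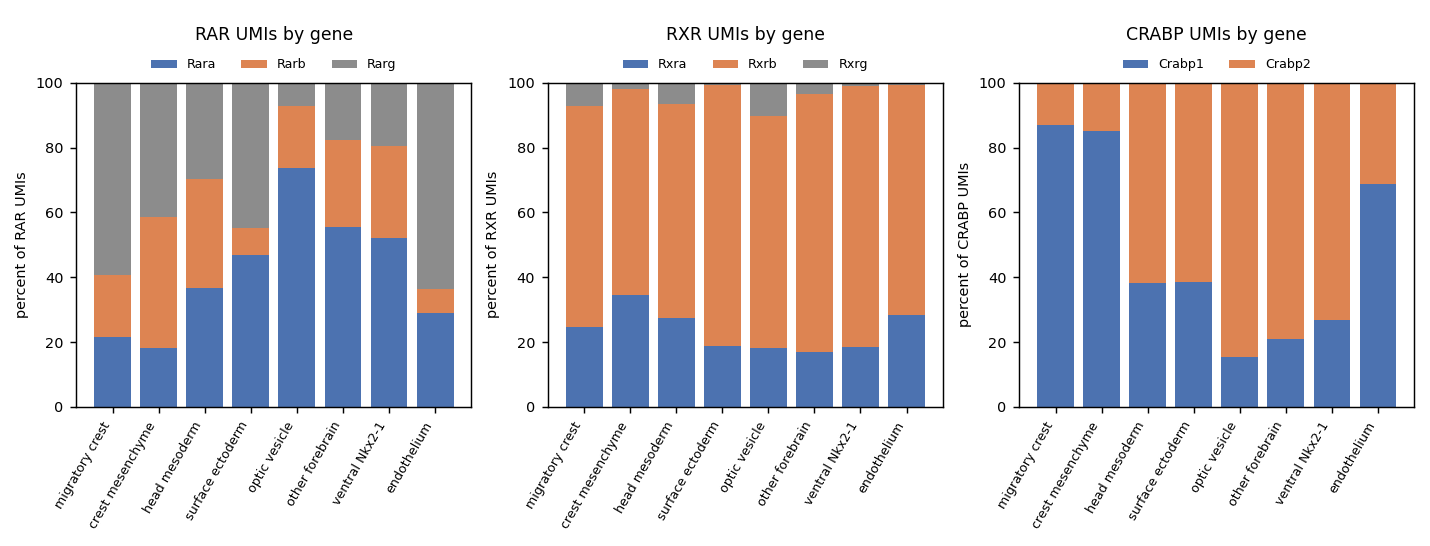
Stacked bars give the percent of RAR, RXR and CRABP UMIs that came from each gene in 8 classes, pooled over libraries. Rara makes up 18.1% of RAR UMIs in crest mesenchyme and 73.6% in optic vesicle, while Rxrb makes up most RXR UMIs in every class shown.

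The RXR genes encode the shared partners of RARs and other nuclear receptors. Rxra (chromosome 2, 27676440 to 27762957, plus strand, ENSMUSG00000015846) had 7.67, 10.9, 7.46, 11.4 and 18.95 CPM in crest mesenchyme of libraries 1 to 5, against 3.53, 6.96, 4.97, 6.37 and 7.50 CPM in neuroepithelium. It was higher in crest mesenchyme within all 5 libraries, though the ranges overlapped by a small margin. The pooled ratio was 2.003 (1.78 to 2.26; 11.8 against 5.90 CPM), with no call since neither class reached 20 CPM. Rxra ran from 11.8 CPM in crest mesenchyme through 9.66 in head mesoderm, 8.19 in endothelium and 7.98 in migratory crest to 5.11 in other forebrain, each overlapping its neighbour, and erythroid cells had 0.551 CPM.

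Rxrb (chromosome 17, 34031812 to 34038399, plus strand, ENSMUSG00000039656) was nearly level. Crest mesenchyme of libraries 1 to 5 had 24.3, 20.6, 19.9, 22.25 and 23.7 CPM, against 26.2, 23.8, 22.4, 23.4 and 26.3 CPM in neuroepithelium. Crest mesenchyme was lower within each library, but the ranges overlapped. The pooled ratio was 0.894 (0.828 to 0.964; 21.7 against 24.2 CPM). Levels ran from 26.1 CPM in surface ectoderm to 20.5 CPM in endothelium, with every neighbouring pair overlapping, and erythroid cells had 10.7 CPM. Rxrb made up 63.5% of RXR UMIs in crest mesenchyme, against 73.7% in neuroepithelium, and Rxra 34.6% against 17.9%.

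Rxrg (chromosome 1, 167598384 to 167639623, plus strand, ENSMUSG00000015843) was scarce, at 0.628 CPM from 27 UMIs in crest mesenchyme, against 2.76 CPM from 276 UMIs in neuroepithelium, and was not assessed for a call. Crest mesenchyme was higher in 2 libraries and lower in 3. Optic vesicle of libraries 1 to 5 had 0.849, 0.451, 0.893, 2.86 and 7.83 CPM, highest in library 5. The vesicle sub-cluster led by Trpm1 and Pmel had 14.3 CPM from 151 UMIs, and the other vesicle sub-clusters had 0.529 to 5.08 CPM. Rxrg made up 10.3% of the RXR UMIs of optic vesicle. Other forebrain had 1.08 CPM, mostly from library 1 at 3.26 CPM, and erythroid cells had 0 UMIs.

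Within neuroepithelium, optic vesicle was set against other forebrain in the 4 libraries with enough cells of both. None of the 6 genes assessed was called higher or lower, where 0.602% of 8643 genes were called higher and 0.359% lower. Their median log2 ratio was 0.16, against 0.04 for all genes. Rara was higher in the vesicle in all 4 libraries, with ratios of 1.14, 1.40, 1.96 and 2.48 in libraries 1 to 4. Pooled values include the 815 vesicle cells of library 5, which had 7 other forebrain cells. The pooled Rara ratio was 2.10 (1.80 to 2.46; 13.6 against 6.48 CPM), under the minimum of 20 CPM, and in libraries 1 to 4 alone it was 1.68 (1.42 to 1.99). Crabp1 was lower in the vesicle in all 4 libraries at a pooled 113 against 204 CPM, a ratio of 0.554 (0.611 in libraries 1 to 4), but this direction turned with a mitochondrial limit of 5% (1.34) and with the gene lists allowed in the clustering (1.09). Crabp2 had 620 against 772 CPM, a ratio of 0.803 (0.904 in libraries 1 to 4, and above 1 in library 3).

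Surface ectoderm, which forms the lens and the epithelium of the cornea, was set against neuroepithelium in 5 libraries. Its 9 class markers summed to 1513 CPM there and 26.8 CPM in neuroepithelium. Of 6 genes assessed, 0 were called in either direction, beside 3.1% of 8745 genes called higher and 1.05% called lower. Rarg was not among the 6, since its level over the joined classes was under 5 CPM, but it was higher in all 5 libraries, at 20.4 CPM in surface ectoderm and 1.57 CPM in neuroepithelium, a ratio of 13.0 (10.6 to 16.0), and it was called when the filter on low values was dropped. Rara had 21.3 against 11.4 CPM, a ratio of 1.87, which became a call at 2.01 with the library as a block, where classes are set against each other within libraries. Crabp1 was higher in all 5 libraries (249 against 141 CPM, ratio 1.76) and Crabp2 lower in all 5 (395 against 667 CPM, ratio 0.592), neither reaching the size for a call. The ratio of Rara reached 2.22 without library 5 and that of Crabp1 reached 2.04 without library 3. Rxrg had 0.266 CPM from 3 UMIs.

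Against head mesoderm, the other mesenchyme of the area, crest mesenchyme again had more Crabp1, Rarg and Rarb. Of 8 genes assessed over 3 libraries, 3 were called higher and 0 lower, beside 0.763% of 8649 genes called higher and 1.36% lower. The median log2 ratio was 0.62, against -0.04 for all genes. Head mesoderm of libraries 1 to 3 had 117, 117 and 124.5 CPM Crabp1, below crest mesenchyme of every library. The pooled Crabp1 ratio was 16.95 (15.7 to 18.4), but it was 1.82 (1.55 to 2.14) in library 1, which held 96 of the 247 head mesoderm cells, and 21.7 and 18.2 in libraries 2 and 3. For Rarg the ratio was 3.61 (2.91 to 4.55; 54.3 against 15.02 CPM), with 15.7, 18.15 and 10.99 CPM in head mesoderm of libraries 1 to 3 and ratios of 1.63, 3.57 and 4.08 there. For Rarb it was 3.12 (2.54 to 3.87; 53.0 against 16.99 CPM), with 14.0, 15.9 and 18.9 CPM in head mesoderm and ratios of 3.20, 2.54 and 1.65, and the pooled ratio was 2.19 without library 5. These pooled ratios include crest cells of libraries 4 and 5, which had 11 and 2 head mesoderm cells. Pooled ratios of 1.83 for Crabp2 and 1.29 for Rara had no single direction over the libraries. Crabp2 had ratios of 0.504 (0.398 to 0.635), 1.95 and 1.13 in libraries 1 to 3, and Rara 0.833, 1.099 and 0.981. The head mesoderm markers summed to 184 CPM in crest mesenchyme, against 623 CPM in head mesoderm, and crest markers to 753 CPM in head mesoderm, so the classes share part of each list.

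Migratory crest, named from a separate list of 6 markers that includes Sox10 and Foxd3, was set against crest mesenchyme in a comparison added after the classes were seen. Its markers summed to 427 CPM (366 to 1490), against 111 CPM in crest mesenchyme. Rarb was the 1 gene of 8 called, and it was lower, while 0 were called higher, beside 0.42% of 8579 genes called higher and 1.07% lower. Migratory crest of libraries 1 to 5 had 20.9, 23.7, 8.48, 8.73 and 1.83 CPM Rarb, below crest mesenchyme in every library. These values rest on 216, 26, 14, 10 and 1 UMIs, and that of library 5 has an interval of 0.0463 to 10.2 CPM. The pooled ratio was 0.340 (0.299 to 0.387; 18.05 against 53.0 CPM), and it was 0.215 without library 1, which gave 248 of the 389 migratory cells. Stra6 was lower in all 5 libraries at 5.27 against 14.5 CPM, a ratio of 0.363 (0.581 with the library as a block), under the minimum of 20 CPM. Crabp1 differed little when pooled, at 2131 against 1943 CPM (ratio 1.097), but without library 1 the ratio was 0.687.

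The CRABP makeup of migratory crest differed widely between libraries. Crabp1 had 2453, 2199, 1336, 990 and 689 CPM in libraries 1 to 5, and Crabp2 had 245, 342, 449.6, 528 and 832 CPM. Libraries 1 and 2 were high in Crabp1 and low in Crabp2, and library 5 had more Crabp2 than Crabp1. The cells came from different sub-clusters, since 1 of 281 cells held 248 migratory cells of library 1 and 31 of library 2, and another of 81 cells held 27, 21 and 31 cells of libraries 3, 4 and 5. More Crabp1 than Crabp2 UMIs were found in 97.2, 96.9, 73.8, 51.5 and 26.7% of thinned migratory cells of libraries 1 to 5. Optic vesicle markers in migratory crest ranged from 8.69 to 290.7 CPM over libraries, and their part in this result was not tested. Rarg in migratory crest was likewise high in libraries 1 and 2 (64.5 and 70.3 CPM) and 23.6 to 27.3 CPM in the others.

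Genes around the receptors were read from lists of the pathway, chosen with earlier results of these data known. Of 11 enzyme genes, 4 were assessed between crest mesenchyme and neuroepithelium, with 0 higher and 1 lower. The lower gene was Aldh1a1, which makes retinoic acid, at 1.19 CPM in crest mesenchyme and 46.9 CPM in neuroepithelium (ratio 0.0253). Dhrs3, which reduces retinal to retinol, and Cyp26a1 were too low to assess, at 6.88 against 0.240 CPM (ratio 28.7) and 4.49 against 0.340 CPM (ratio 13.2), and both were higher in crest mesenchyme in all 5 libraries. Among 7 other carriers, 10 coregulators and 10 other partners of RXR, 2, 9 and 4 were assessed and none was called. Of 15 genes reported as responsive to retinoic acid in mouse embryos, 6 were assessed, with 2 called higher and 1 lower. Over all 8768 genes, 2.95% were called higher and 2.35% lower. The median log2 ratio of the 6 was -0.139, beside 0.028 over all genes. Foxc1, which is also a head mesoderm marker here, was higher (85.5 CPM in crest mesenchyme against 1.55 CPM in neuroepithelium, ratio 55.2). Meis1 was lower (13.4 against 47.7 CPM, ratio 0.281).

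Genes of the same lists also differed between the other classes. Optic vesicle had more of the coregulator Nrip1 than other forebrain (62.5 against 23.7 CPM, ratio 2.63) and more Meis1 (ratio 4.47) and Meis2 (ratio 2.16). These were 1 of 9 coregulators and 2 of 4 responsive genes assessed, with 0 called lower. Over all 8643 genes, 0.602% were called higher and 0.359% lower. Aldh1a1 and Aldh1a3, which make retinoic acid, had pooled ratios of 71.2 and 30.7 but were not higher in all 4 libraries. All these pooled ratios include the 815 vesicle cells of library 5, which had 7 other forebrain cells. They therefore mix differences between libraries with those between classes, and values without library 5 are not given for these genes. Surface ectoderm had more Aldh1a3 than neuroepithelium (794 against 94.3 CPM, ratio 8.43), more Meis2 (ratio 2.55), and less Nr2f1 (0.378) and Nr2f2 (0.474). Of 4 enzymes assessed there, 1 was called higher, and of 5 responsive genes 2 were called higher and 2 lower. Over all 8745 genes, 3.1% were called higher and 1.05% lower. Crest mesenchyme had more Meis2 than head mesoderm (ratio 8.58). There, 7 responsive genes were assessed, with 1 called higher and 1 lower, beside 0.763% of all genes higher and 1.36% lower. Migratory crest had less Foxc1 than crest mesenchyme (0.407). In that comparison 7 responsive genes were assessed, with 0 called higher and 1 lower, beside 0.42% of all genes higher and 1.07% lower.

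The genes whose levels ran most like each of the 9 were taken from Pearson's r of log2(CPM + 5) over 41 points, each a class in a library, from 9 classes. The points share libraries and depths, so r is a description only. Of 6788 genes, Tril (r = 0.929), Tns1 (0.911) and S1pr3 (0.905) were most like Rarb, and Cnn2 (0.935), Tes (0.918) and Lima1 (0.911) most like Rarg. Crabp1 was closest to Nkd2 (0.894), Cited1 (0.892) and Gpc1 (0.884), and Crabp2 to Dnph1 (0.940), Tex9 (0.939) and Msi1 (0.936). Rara ran with Abl1 (0.934), Dusp7 (0.909) and Lasp1 (0.909), Rxrb with Ugdh (0.922), Brwd1 (0.915) and Angel2 (0.911), and Stra6 with Scube3 (0.852), Hunk (0.846) and Tenm3 (0.823). Rxra and Rxrg were under 20 CPM in every class and were not ranked. Among the 9 themselves, r was 0.766 for Rara with Rarg, 0.724 for Rara with Rxrb and 0.692 for Crabp2 with Rxrb. Rara gave 0.687 with Crabp1 and 0.674 with Stra6. Crabp1 with Crabp2 gave 0.666, although their levels ran in opposite directions between crest mesenchyme and neuroepithelium. Further values were 0.664 for Rarb with Rarg, 0.648 for Rarb with Crabp1 and 0.000 for Rarg with Crabp2.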

How the data were processed

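The unit analysed is raw counts, UMIs per gene and barcode as the authors deposited them in 1 matrix that pools 5 libraries, and the values are whole numbers with no sign of normalisation. Cell Ranger and the build mm10, also called GRCm38, are named per the submitters' processing notes, while its version, the calling of cells and the use of strand were not given in the sources used here. Per-sample columns not used numbered 0.

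A barcode was kept if it had 1000 genes or more and if no more than 10% of its UMIs were mitochondrial, which removed 22. Scrublet in scanpy 1.11.5 (Python 3.11.15), at an expected rate of 6%, removed 66 barcodes as doublets, 0.808% of the total, with 1.31, 1.46, 0.501, 0.403 and 0.516% in libraries 1 to 5, each below the expected rate, so doublets may remain. Cells were clustered on 2000 variable genes, 30 principal components and 15 neighbours with the Leiden method at resolution 1, without integration, and 60 genes (the 9 described and the pathway lists) were left out of the clustering. Of the 26 first clusters, the neural, mesenchymal and ectodermal ones were each pooled and clustered again. Names rest on marker lists, with at least 3 markers 2-fold higher after 5 CPM was added to both sides. Neural clusters were scored against non-neural cells. Those with Nkx2-1 or Shh among their 10 leading genes were named the ventral cluster. Of the others, optic vesicle needed 5 of its 10 markers. Clusters short of that were named other forebrain if they had 3 markers of another forebrain region. The scoring of markers was chosen once the data had been seen. Clusters low in Malat1 (804 cells, here nucleus-depleted) and clusters with markers of both crest and neuroepithelium (311 cells, mixed) were left out of every class.

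For CPM, the UMIs of a gene in all cells of a class were summed and scaled to a class total of 1000000 UMIs. Ratios carry exact intervals for Poisson counts and shares exact Clopper-Pearson intervals, both 95% and for counting error only. A count of 0 allows up to 3 counts. Genes named are the 9, the pathway genes past the size rule or with the values given, and for each of the 9 with 20 CPM in a class the 3 genes with the highest r. The procedure was checked on simulated Poisson counts with the same gene proportions in every library. Such counts hold no differences between embryos or cells, so the check says nothing about errors from those differences. Other tools were numpy 2.4.6, scipy 1.17.1, pandas 2.3.3 and matplotlib 3.10.9, with gene positions from GENCODE M21. The genes and lists were chosen with earlier results of these data known. Alternatives covered the doublet, mitochondrial, resolution, scaling, weighting, filter and size-rule settings, the classes, the library as a block, and each library left out. No protein sequences were used here, and some genes of the pathway lists are not reported here.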

Additional observations from a re-analysis of the deposited data

Results flagged for a closer look

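In 72 pairs of class and gene with 4 or 5 libraries, 10 had a highest library so far from the nearest other library, relative to the whole range, that the gap passed Dixon's 95% critical value. Chance flags about 1 in 20 independent groups, but these groups share the same libraries, so that rate cannot be read across. Of the 10, 9 concern library 5, which had the lowest median depth (20713 UMIs). Library 5 had Rarb at 105.4 CPM in crest mesenchyme, where the nearest library had 44.7 CPM. In endothelium it had Rarb at 11.3 CPM (22 UMIs), where the nearest had 3.62 CPM (8 UMIs). Stra6 in library 5 was at 25.43 CPM in crest mesenchyme and 84.55 CPM in surface ectoderm, with nearest values of 13.8 and 26.75 CPM. Rara in library 5 was at 27.43 CPM in migratory crest (15 UMIs) and 18.59 CPM in optic vesicle, with nearest values of 21.2 and 11.6 CPM. Rxra was at 25.6 CPM (14 UMIs) and Rxrg at 10.97 CPM (6 UMIs) in migratory crest of library 5. Rxrb was at 26.05 CPM in its optic vesicle, where the nearest library had 24.1 CPM. Some flags lay within counting error. The intervals for Rxrb were 24.05 to 28.2 CPM in library 5 and 20.99 to 27.5 CPM in library 4. In migratory crest, intervals of library 5 and the nearest library also overlapped for Rara (15.35 to 45.2, 14.8 to 29.5) and Rxra (14.0 to 42.95, 6.04 to 19.4). Those for Rarb in endothelium overlapped by a small margin. The remaining value is Rxrg in other forebrain of library 1, at 3.257 CPM (26 UMIs), where the nearest library had 0.404 CPM.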

How the results depend on the processing

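Classes are paired within libraries, so each ratio was also computed with the library as a replicate block (the Mantel-Haenszel ratio, added after seeing the data). Crest mesenchyme over neuroepithelium then gave 2.081 for Rara and 0.5136 for Crabp2, and the other values that moved follow. No test was run on these ratios. No ratio changed sides of 1 while called. Of the alternatives run, 197 of 211 for crest mesenchyme over neuroepithelium left the call and size as given, as did 169 of 189 for optic vesicle over other forebrain, 180 of 189 for surface ectoderm over neuroepithelium, 196 of 200 for crest mesenchyme over head mesoderm and 163 of 178 for migratory crest over crest mesenchyme. For the remainder the cause was not tested, apart from what each setting does by construction.

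Crest mesenchyme over neuroepithelium: Rara gave 1.965 with a mitochondrial limit of 5%, 1.975 with libraries weighted equally and 1.980 to 2.226 when each library was left out. Crabp2 gave 0.4991 (mitochondrial limit of 5%), 0.4188 (equal weights), 0.4994 (median-of-ratios size factors), 0.4982 (migratory crest counted in) and 0.4474 to 0.5615 with each library left out. Rxrg gave 0.3826 with migratory crest counted in and 0.1288 to 0.6635 with each library left out. At a ratio of 1.5, 424 genes were higher and 344 lower.

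Optic vesicle over other forebrain: Rara gave 2.133 with totals that leave out mitochondrial, ribosomal and haemoglobin genes. At a mitochondrial limit of 5%, Rarg gave 0.3995, Rxrg 2.023 and Crabp1 1.342, and with the gene lists allowed in the clustering Rxrg gave 1.934 and Crabp1 1.093. With each library left out, Rarg ran from 0.4892 to 1.163, Rxrg from 1.088 to 12.17, Crabp1 from 0.4739 to 0.7162, Stra6 from 1.981 to 4.252 and the genes called higher from 32 to 77, beside 52. At a ratio of 1.5, 82 genes were higher and 73 lower, and 19 were lower, beside 31, with the ventral cluster counted in. In libraries 1 to 4 alone Rxrg gave 1.088, Stra6 1.981 and 32 genes were higher, and with the replicate block Rxrg gave 1.431 and 34 genes were higher.

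Surface ectoderm over neuroepithelium: with the lists allowed, Rara gave 2.004 and Crabp1 2.027, and Crabp1 gave 2.009 at a mitochondrial limit of 5%. Rara gave 2.009 with the replicate block. Rarg was called at 13.01 with no filter on low values. With each library left out, Rara ran from 1.610 to 2.221 and Crabp1 from 1.519 to 2.042. At a ratio of 1.5, 505 genes were higher and 219 lower. Crest mesenchyme over head mesoderm: Crabp2 gave 2.012 without the sub-cluster led by Acta2 and Tagln, Rxra gave 0.7658 with the replicate block, and 146 genes were higher and 321 lower at a ratio of 1.5.

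Migratory crest over crest mesenchyme: with libraries weighted equally Rxra gave 1.077, Crabp2 1.638, Stra6 0.5693 and 57 genes were higher, beside 36, and Stra6 gave 0.3499 with the reduced totals. With the replicate block Rxra gave 1.042, Crabp2 1.600 and Stra6 0.5814. With each library left out, Rarb ran from 0.2154 to 0.4987, Rarg from 0.6593 to 1.112, Crabp1 from 0.6870 to 1.221, Stra6 from 0.3132 to 0.5514 and the genes called higher from 29 to 66. At a ratio of 1.5, 65 genes were higher and 166 lower. This comparison, the counting in of migratory crest, the removal of the Acta2 sub-cluster, the unfiltered setting and the limit to libraries with both classes were chosen after seeing the data. Of 54 shares of cells, 42 moved with the thinning depth, and 21 of 150 alternatives moved an RAR share. Depth limits Rxrg most, with 27 UMIs in crest mesenchyme.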

Other observations

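Clusters left out of every class carried the genes in 3 ways. A nucleus-depleted cluster of 200 cells with crest markers had 3047 CPM Crabp1, 63.7 CPM Rarg and 32.9 CPM Rarb. The other nucleus-depleted clusters, of 402 and 202 cells, had 676 and 950 CPM Crabp2, with 1.71 and 2.73 CPM Rarg. The mixed cluster of 311 cells had 696 CPM Crabp1, 509 CPM Crabp2, 14.98 CPM Rarg and 13.6 CPM Rarb, at a median of 57890 UMIs per cell. An unnamed ectodermal cluster of 43 cells had 57.4 CPM Stra6 from 67 UMIs and 28.3 CPM Rarg. The 23 neuron-like cells had 639 CPM Crabp1 from 259 UMIs and 311 CPM Crabp2, and 0 UMIs of Rarb, Rarg and Rxrg.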
